A study of Mus musculus with 2 samples.

Results

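The genes described here are 39 products of the hepatocyte, the main cell of the liver: plasma proteins, apolipoproteins and enzymes of drug, amino acid and urea metabolism. They were read in mouse skeletal muscle as a check for liver or fat RNA in a pool. Members were taken as probe sets annotated to exactly 1 gene symbol of the list. Of the 39 genes, 36 had such a probe set, 52 probe sets in all, among 18193 genes and 34945 single-symbol probe sets on the array. Trf, C3 and Serpina3k had none here and were not analysed. The list was drawn up with values of these arrays known, so no count over it is independent evidence, and each is given as a description.

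Total RNA was hybridised to 2 Affymetrix Mouse Genome 430 2 arrays, 1 for Jhdm2a null mice and 1 for wild-type mice. Each array held RNA combined from the skeletal muscle of 3 male mice aged 3 months, and both genotypes derive from 129 ES cells with a backcross of 4 generations onto C57BL/6. Jhdm2a, now Kdm3a, encodes a demethylase of lysine 9 of histone H3. The allele, the muscle taken and the dissection are not given in the sources used here. With 1 pooled array per genotype there is no replicate check and no test, and the number of arrays limits the precision.

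Hepatocytes secrete most plasma proteins, package lipid into lipoproteins with apolipoproteins, and turn ammonia into urea. Factors such as HNF1, HNF4 and C/EBP alpha keep this programme on in the liver, and it is not a programme of muscle fibres. Some of the products have other sources: adipocytes also make Apoe, Apoc1, Rbp4, Hp and Cyp2e1, and macrophages make Apoe, Apoc1, Apoc2 and, when activated, Arg1.

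Both arrays had a median MAS5 signal of 112. A signal floor of 182, the 60th percentile of all non-control signals, stood in for detection calls, which are not in the table used here. The Kdm3a probe set read 488 in the null-labelled and 406 in the wild-type-labelled pool, and its place relative to the disrupted part is not given, so it says nothing about the genotypes, and each pool is called here by its label. All 18 skeletal muscle markers were above the floor on both, with a median log2 ratio of 0.16; Acta1, the skeletal alpha-actin, read 19992 in the null-labelled and 16840 in the wild-type-labelled pool. Ratios below are null-labelled over wild-type-labelled. Between probe sets of 1 gene that were above the floor on both arrays, log2 ratios varied with an SD of 0.29 over 3719 genes. The log2 ratios of 18 hybridisation controls averaged -0.02 ± 0.09 (SD). Both are technical errors, and the spread between mice was not measured. The SD of 0.29 does not cover signals under the floor. Over every probe set, members with several had SDs between 0.11 (Serpina1b) and 3.71 (Kng1).

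Letters of liver promoter elements were looked for in the members' promoters. The window from 250 bases before to 50 after the annotated start (RefSeq, GRCm38.p6) was given for 29 of the 39 genes, 33 windows in all. The HNF1 half-site GTTAAT, read on both strands, stood in 27.3% of these windows and in 7.1% of the 32851 windows of all genes. The C/EBP form TTGCNNAA stood in 30.3% against 10.8%, and TATAAA in 33.3% against 13.6%. The CCAAT letters were found in 36.4% against 37.4% of all windows. AGGTCA, 1 arm of the direct repeat read by PPAR and HNF4, stood in 36.4% against 16.3%, the long HNF4 form CAAAGTNCA in 6.06% against 1.41%, and its short core CAAAG in 66.7% against 53.9%. The motifs were searched separately and may overlap. A match is a description of letters and not a bound site.

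The windows below show the half-site, in capitals, in 3 members that were far lower in the null-labelled pool, Alb, Fga and Serpina1c, and in Vtn, which was nearly equal on both. They were chosen after the values were seen. Alb, on the plus strand at chr5:90460620-90460919, has it starting 32 bases before the annotated start. Fga, on the plus strand at chr3:83025903-83026202, has the reverse complement 43 bases before. Serpina1c, on the minus strand at chr12:103904901-103905200, has it 27 bases before, and Vtn, on the plus strand at chr11:78498870-78499169, the reverse complement 112 bases before. That the letters occur in this set of 4 beside both large and small differences follows from the choice. A link between the letters and the ratios was not tested.
Alb: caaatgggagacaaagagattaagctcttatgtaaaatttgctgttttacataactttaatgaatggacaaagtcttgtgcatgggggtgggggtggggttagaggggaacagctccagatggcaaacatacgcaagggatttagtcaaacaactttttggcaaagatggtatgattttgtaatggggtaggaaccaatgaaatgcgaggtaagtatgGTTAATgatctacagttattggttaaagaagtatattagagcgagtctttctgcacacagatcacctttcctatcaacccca
Fga: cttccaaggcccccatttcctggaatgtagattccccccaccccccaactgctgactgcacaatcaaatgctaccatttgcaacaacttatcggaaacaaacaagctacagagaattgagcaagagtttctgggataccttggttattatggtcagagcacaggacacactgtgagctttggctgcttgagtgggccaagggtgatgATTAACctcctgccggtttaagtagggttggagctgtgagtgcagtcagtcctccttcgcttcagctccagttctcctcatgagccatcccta
Serpina1c: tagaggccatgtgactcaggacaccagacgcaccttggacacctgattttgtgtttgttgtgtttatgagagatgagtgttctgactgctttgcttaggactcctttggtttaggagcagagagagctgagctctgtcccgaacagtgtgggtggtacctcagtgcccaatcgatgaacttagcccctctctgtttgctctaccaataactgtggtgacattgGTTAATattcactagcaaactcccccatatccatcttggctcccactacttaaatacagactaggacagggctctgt
Vtn: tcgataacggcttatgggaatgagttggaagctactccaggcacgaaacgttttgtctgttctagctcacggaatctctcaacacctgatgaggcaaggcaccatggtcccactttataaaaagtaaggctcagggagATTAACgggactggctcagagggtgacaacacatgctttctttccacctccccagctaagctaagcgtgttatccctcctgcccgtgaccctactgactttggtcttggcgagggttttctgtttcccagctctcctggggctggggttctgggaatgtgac

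Most hepatocyte probe sets were lower in the null-labelled pool, where 9 of the 52 were above the floor, against 33 in the wild-type-labelled pool. Cyp2e1, Apoe, Vtn and Hp were among those above it in both. Of all 34945 single-symbol probe sets, 16368 were above it in the null-labelled pool and 16355 in the wild-type-labelled pool. Of the 52 probe sets, 49 were lower in the null-labelled pool and 40 were at least 2-fold lower, against 47.7% and 9.82% of all single-symbol probe sets. At least 2-fold higher were 2, both under the floor on both arrays, where the background is 6.79% of all single-symbol probe sets. Summed over the 52 probe sets the signal was 8676 in the null-labelled and 56748 in the wild-type-labelled pool. In pooled tissue, fewer cells of a type and less RNA per cell cannot be told apart.

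**Figure D1:**
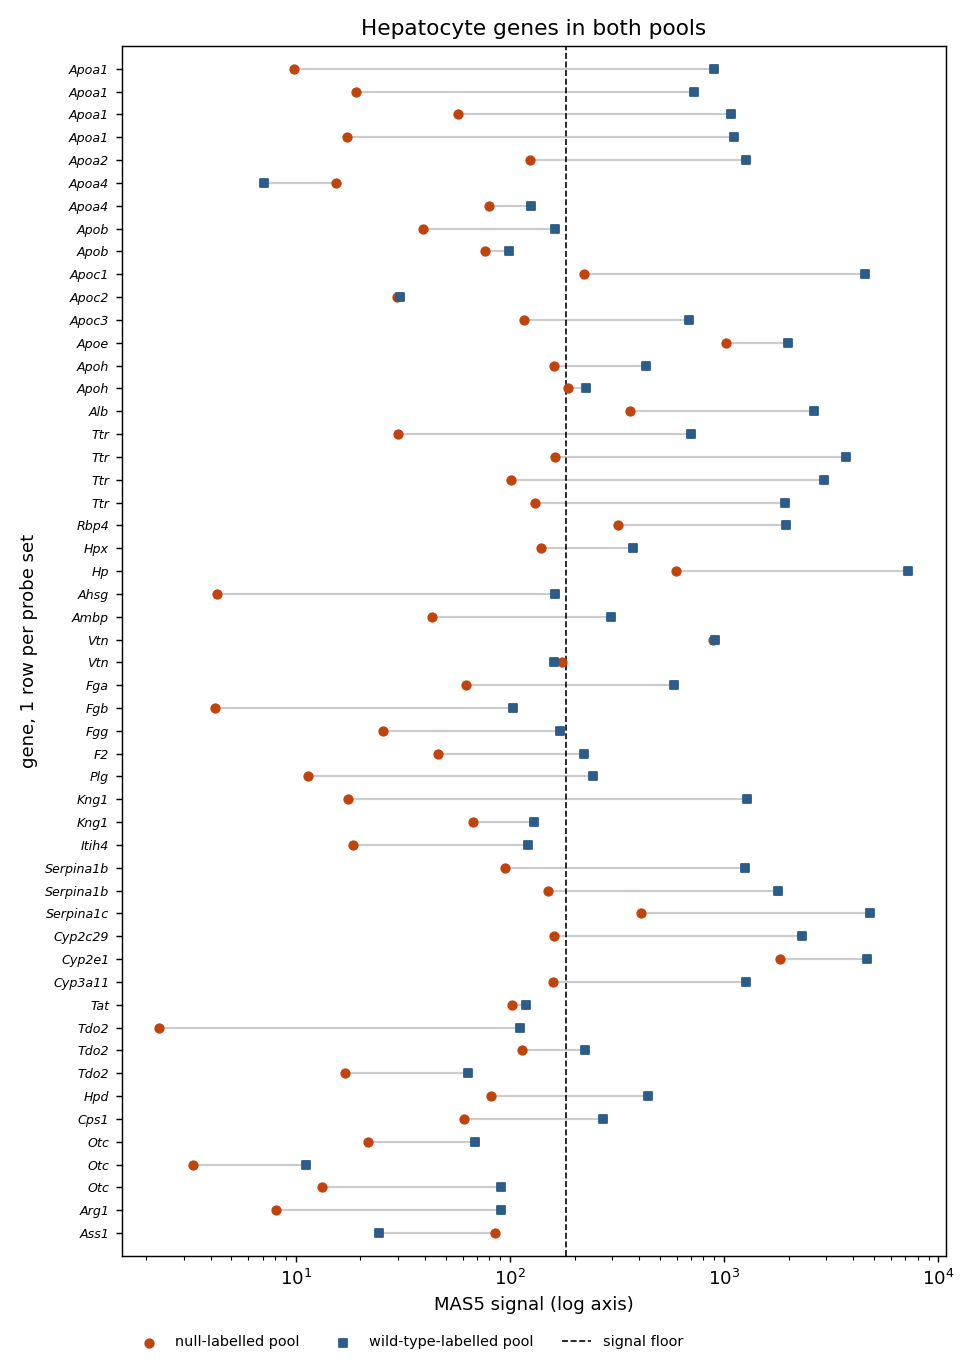
MAS5 signal on a log axis of each of the 52 probe sets, 1 row each and grouped by role, with circles for the null-labelled pool, squares for the wild-type-labelled pool and a dashed line at the floor of 182. Of the circles 9 lie above the floor, against 33 of the squares. Over all 34945 single-symbol probe sets these counts were 16368 and 16355. Only the Apoa4, Vtn and Ass1 genes have a row with the circle to the right.

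By the floor the 36 genes fell into 3 sets. A set of 9 was above it on both arrays in at least 1 probe set, and 11 were under it on both. Above it on 1 array only were 0 members in the null-labelled pool and 16 in the wild-type-labelled pool. Among all 10699 genes above the floor in either pool, 4.16% were above it in the null-labelled pool only and 5.1% in the wild-type-labelled pool only. For the 16 genes a difference follows from how they passed, and their folds are bounds, the wild-type-labelled signal over the floor as a log2 mean over probe sets.

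**Figure D2:**
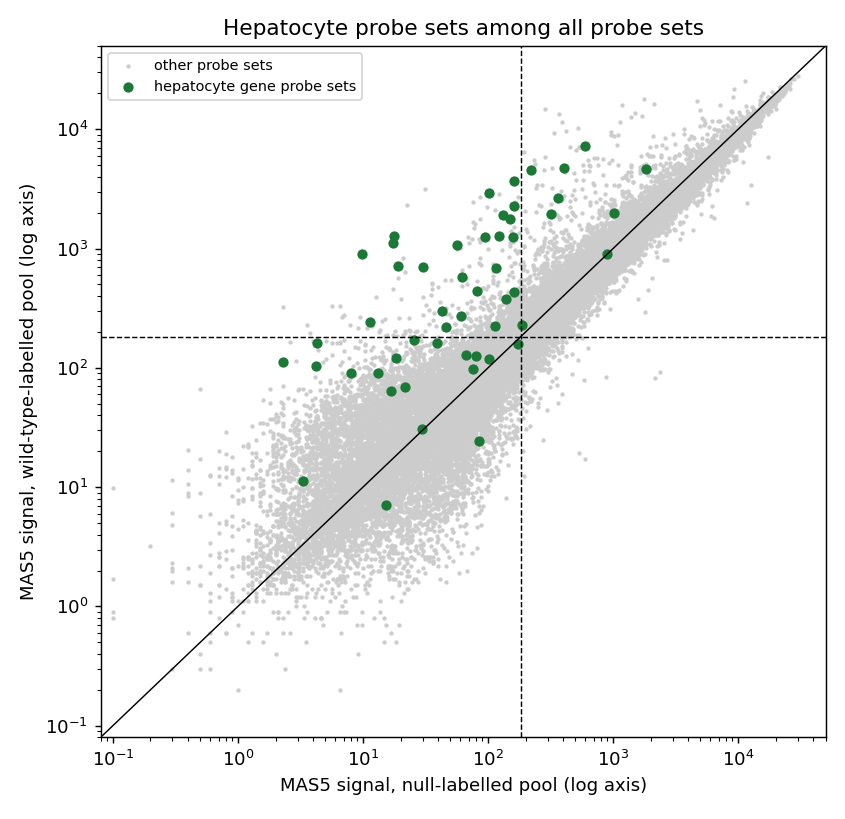
Signal in the null-labelled pool (horizontal, log axis) against the wild-type-labelled pool (vertical, log axis) for each single-symbol probe set in grey, with the 52 hepatocyte probe sets in green, the line of equal signal and dashed lines at the floor of 182. Of the green points 49 lie above the line of equal signal, and 24 lie in the upper left, above the floor in the wild-type-labelled pool only.

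With every probe set used and no floor, 29 of the 36 genes had a mean log2 ratio at least 2-fold lower, and 1, Ass1, at least 2-fold higher. Over all 18193 genes those shares were 9.18% and 5.49%. The median log2 ratio was -2.77 over the 36 genes and 0.02 over all genes. This count keeps each member that has a probe set, but ratios near background are imprecise.

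Among the apolipoproteins, the proteins that carry lipid in plasma and direct its uptake, Apoa1, Apoa2, Apoc1 and Apoc3 differed most. Apoa1, the main protein of HDL, read 9.80, 19.1, 56.9 and 17.3 in its 4 probe sets in the null-labelled pool, against 899, 721, 1074 and 1114 in the wild-type-labelled pool. It was at least 5.15-fold lower, with the null-labelled pool under the floor in each probe set. Apoa2, the second HDL protein, read 124 in the null-labelled and 1266 in the wild-type-labelled pool, at least 6.95-fold lower. Apoc3, an inhibitor of lipoprotein lipase, read 116 in the null-labelled and 686 in the wild-type-labelled pool, at least 3.76-fold lower. Apoc1, which hinders receptor uptake of lipoprotein remnants, read 223 in the null-labelled and 4566 in the wild-type-labelled pool and had the lowest log2 ratio of the 9 genes measured on both, -4.36 (20.5-fold lower). Adipocytes and macrophages also make Apoc1.

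Apoe, the ligand through which remnants bind the LDL receptor, was less different. It read 1016 in the null-labelled and 1993 in the wild-type-labelled pool, a log2 ratio of -0.97 (1.96-fold lower), just short of 2-fold. Apoh, a phospholipid-binding plasma protein, had 2 probe sets that differed in size. They read 161 and 186 in the null-labelled against 432 and 227 in the wild-type-labelled pool, and the second, above the floor on both, had a log2 ratio of -0.29. Apob, the structural protein of VLDL and LDL, stayed under the floor, with 39.3 and 76.3 in the null-labelled against 163 and 98.5 in the wild-type-labelled pool. Apoa4, made mainly by the intestine, had 2 probe sets of opposite sign under the floor, at 15.4 and 80.0 in the null-labelled against 7.10 and 125 in the wild-type-labelled pool. Apoc2, the activator of lipoprotein lipase, read 29.8 in the null-labelled and 30.5 in the wild-type-labelled pool.

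Carrier proteins of plasma were lower too, with Vtn as the exception. Alb, serum albumin, read 361 in the null-labelled and 2635 in the wild-type-labelled pool, a log2 ratio of -2.87 (7.29-fold lower). Its signal stayed above the floor in the null-labelled pool. Ttr, the carrier of thyroxine and of the retinol-binding protein, read 30.1, 162, 101 and 131 in the null-labelled pool, against 697, 3708, 2937 and 1928 in the wild-type-labelled pool. All 4 Ttr probe sets had unfloored log2 ratios between -4.86 and -3.87, with a mean of -4.45 ± 0.41 (SD of 4 probe sets), and the bound was at least 10.7-fold lower.

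Rbp4, the retinol carrier that adipocytes also secrete, read 321 in the null-labelled and 1941 in the wild-type-labelled pool, 6.05-fold lower. Hp, haptoglobin, which binds free haemoglobin and is another adipocyte product, read 598 in the null-labelled and 7243 in the wild-type-labelled pool, 12.1-fold lower. Hpx, hemopexin, which binds free haem, read 140 in the null-labelled and 375 in the wild-type-labelled pool, at least 2.06-fold lower. The haemoglobin and haem scavengers thus stood on the same side at different sizes. Ambp, the precursor of bikunin, read 43.0 in the null-labelled and 297 in the wild-type-labelled pool, at least 1.63-fold lower. Ahsg, fetuin-A, an inhibitor of mineral deposits, read 4.30 in the null-labelled and 162 in the wild-type-labelled pool, both under the floor.

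Vtn, vitronectin, a plasma and matrix protein that binds integrins, had 889 in the null-labelled and 909 in the wild-type-labelled pool in its probe set above the floor. The log2 ratio was -0.03, and 0.01 after quantile normalization, so its sign is not read as a direction. The other Vtn probe set read 174 in the null-labelled and 160 in the wild-type-labelled pool.

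Genes of clotting, fibrinolysis and protease inhibition were all lower in the null-labelled pool, though 3 of the 9 with a probe set stayed under the floor. The share of all genes with a mean log2 ratio below 0 was 48.8%. Fga, the alpha chain of fibrinogen, read 62.3 in the null-labelled and 582 in the wild-type-labelled pool, at least 3.19-fold lower. The beta and gamma chains, Fgb and Fgg, read 4.20 and 25.6 in the null-labelled against 103 and 172 in the wild-type-labelled pool, under the floor. The 3 chains, which are assembled into 1 protein, had unfloored log2 ratios of -3.22, -4.62 and -2.75.

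F2, prothrombin, and Plg, plasminogen, were above the floor by little in the wild-type-labelled pool. F2 read 46.2 in the null-labelled and 222 in the wild-type-labelled pool, at least 1.22-fold lower, and Plg read 11.4 in the null-labelled and 243 in the wild-type-labelled pool, at least 1.33-fold lower. Kng1, kininogen, the precursor of bradykinin, had 2 probe sets that read 17.6 and 67.1 in the null-labelled against 1278 and 129 in the wild-type-labelled pool. The second was under the floor on both arrays, and the first gave a bound of at least 7.01-fold lower. Itih4, a heavy chain of the inter-alpha-trypsin inhibitor family, read 18.4 in the null-labelled and 121 in the wild-type-labelled pool, under the floor.

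Serpina1b and Serpina1c, mouse paralogs of alpha-1-antitrypsin, the inhibitor of neutrophil elastase, gave like ratios. Serpina1c read 407 in the null-labelled and 4770 in the wild-type-labelled pool, a log2 ratio of -3.55 (11.7-fold lower). Serpina1b read 94.9 and 150 in the null-labelled against 1251 and 1776 in the wild-type-labelled pool, at least 8.18-fold lower. The paralogs are close in sequence and both Serpina1b probe sets carry the suffix that marks possible cross-hybridisation, so their signals may not be separate measurements. Some Apoa1 and Ttr probe sets carry the same suffix, so agreement within each of those genes may not rest on separate measurements either.

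The 3 cytochrome P450 enzymes, which oxidise drugs and other foreign compounds, were all at least 2-fold lower with bounds included. The share of all genes above the floor in either pool was 2.88%. Cyp2c29 and Cyp3a11 passed the floor in the wild-type-labelled pool only, so for them a difference follows from how they passed. Cyp2c29 read 160 in the null-labelled and 2296 in the wild-type-labelled pool, at least 12.6-fold lower, and Cyp3a11 read 158 in the null-labelled and 1259 in the wild-type-labelled pool, at least 6.91-fold lower. Cyp2e1, the form that oxidises ethanol and is found in fat as well as liver, read 1824 in the null-labelled and 4643 in the wild-type-labelled pool, 2.55-fold lower. Its signal in the null-labelled pool was well above the floor, unlike that of the other two.

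Enzymes of amino acid breakdown and the urea cycle were mostly near or under the floor. Hpd, the dioxygenase of tyrosine breakdown, read 81.2 in the null-labelled and 441 in the wild-type-labelled pool, at least 2.42-fold lower. Tat, the transaminase of the first step of the same pathway, read 102 in the null-labelled and 119 in the wild-type-labelled pool. Tdo2, which opens the ring of tryptophan, had 1 of 3 probe sets above the floor, at 114 in the null-labelled and 223 in the wild-type-labelled pool. The others read 2.30 and 16.9 in the null-labelled against 111 and 63.6 in the wild-type-labelled pool.

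Of the urea cycle enzymes Cps1, which fixes ammonia in the first step, read 60.9 in the null-labelled and 271 in the wild-type-labelled pool, at least 1.49-fold lower. Otc, the second mitochondrial step, was under the floor in each of its 3 probe sets and lower in each in the null-labelled pool, at 21.6, 3.30 and 13.2 against 68.9, 11.2 and 90.7 in the wild-type-labelled pool, with a mean log2 ratio of -2.07 ± 0.61 (SD of 3 probe sets). Arg1, the arginase that releases urea, read 8.10 in the null-labelled and 90.7 in the wild-type-labelled pool. Ass1, argininosuccinate synthase, which many tissues express, went the other way under the floor, with 85.0 in the null-labelled and 24.4 in the wild-type-labelled pool. Only Cps1 of these 4 enzymes passed the floor.

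**Figure D3:**
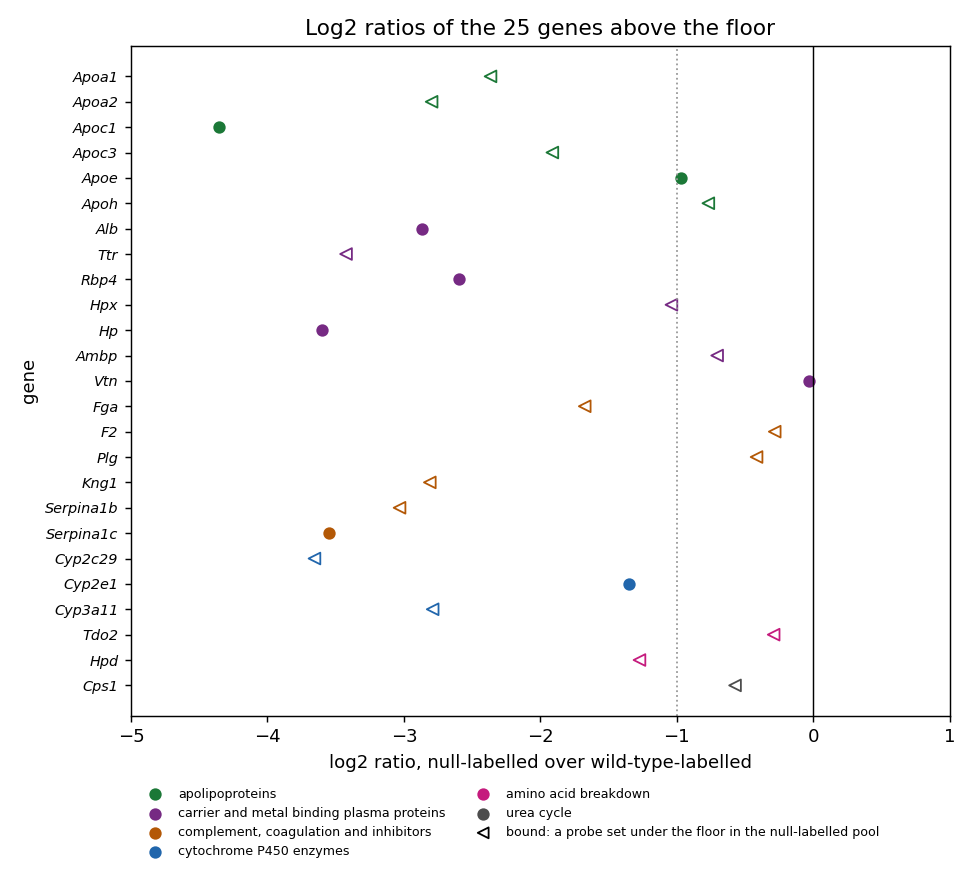
Log2 ratio, null-labelled over wild-type-labelled, of the 25 hepatocyte genes above the floor in either pool, coloured by role, with open triangles where a probe set was under the floor in the null-labelled pool so that the value is a bound. Apoc1 stands lowest at -4.36 and Vtn nearest to 0 at -0.03, and the dotted line marks 2-fold lower.

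Of the 9 members measured on both arrays, 6 were at least 2-fold lower and 0 higher, where 2.36% of 9696 measured genes were at least 2-fold lower and 0.371% higher. Their median log2 ratio was -2.60, against 0.04 over all measured genes. Taking the 25 above the floor in either pool, with signals under it set to it, 17 were at least 2-fold lower and 0 higher, against 2.88% and 0.402% of 10699 genes. Members that passed only through the wild-type-labelled pool had to differ, so these counts do not stand for all members. With the floor at the 75th percentile of signals 4 members were measured on both arrays and 2 of them were at least 2-fold lower.

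Probe sets that stayed under the floor on both arrays were mostly lower in the null-labelled pool too. Among the 19 such probe sets of the list, 16 were lower in the null-labelled pool and 11 at least 2-fold lower, while 2 were at least 2-fold higher. Over the 17625 single-symbol probe sets under the floor on both arrays those shares were 50.4%, 15.5% and 11.9%. Just under the floor in the wild-type-labelled pool lay Fgg at 172, Apob at 163 and Ahsg at 162, and just above it F2 at 222 and Tdo2 at 223.

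Split by other known sources, the members of each set ranged widely. The 5 that adipocytes also make and that had a probe set, Apoe, Apoc1, Rbp4, Hp and Cyp2e1, were all above the floor on both arrays, with log2 ratios between -4.36 and -0.97. Of the 29 with a probe set that neither adipocytes nor macrophages are noted for, 4 were measured on both arrays, Alb, Serpina1c, Apoh and Vtn. Their median log2 ratio was -1.58, and 2 were at least 2-fold lower, against 2.36% of all measured genes. These 4 had to keep signal in the null-labelled pool, so they do not stand for the 29. Another 16 of the 29 were above the floor in the wild-type-labelled pool only, and 9 were under it on both. With every probe set used and no floor, 24 of the 29 were at least 2-fold lower and 1 higher, with a median of -2.79. The shares of all genes were 9.18% and 5.49%.

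Markers of fat were lower as well. Of 18 white and general adipocyte markers with a probe set, 18 had a mean log2 ratio below 0, where 48.8% of all genes did. At least 2-fold lower were 12 of the 16 measured on both arrays, against 2.36% of all measured genes. Summed signals were 116417 in the null-labelled and 258026 in the wild-type-labelled pool. Part of both sums came from bright probe sets that were near equal. A Car3 probe set read 26112 in the null-labelled and 24357 in the wild-type-labelled pool, and an Lpl probe set 16439 and 15835. Adipoq, adiponectin, read 1145 in the null-labelled and 11443 in the wild-type-labelled pool, and Agpat2 and Cidec, of triglyceride synthesis and the lipid droplet, were 19.3-fold and 16.2-fold lower. Of 17 brown adipocyte markers with a probe set 15 were lower, and 7 of the 12 measured on both by at least 2-fold. Their summed signals were 41871 in the null-labelled and 98826 in the wild-type-labelled pool. Most of the null-labelled sum came from Cox8b and Cox7a1, which were near equal on both arrays. These genes read 18805 and 13825 in the null-labelled against 20562 and 13555 in the wild-type-labelled pool. Ucp1, the uncoupling protein of brown fat, read 283 in the null-labelled and 14885 in the wild-type-labelled pool. The part of fat RNA in the values of Apoc1, Hp, Rbp4, Apoe and Cyp2e1 was not tested.

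**Figure D4:**
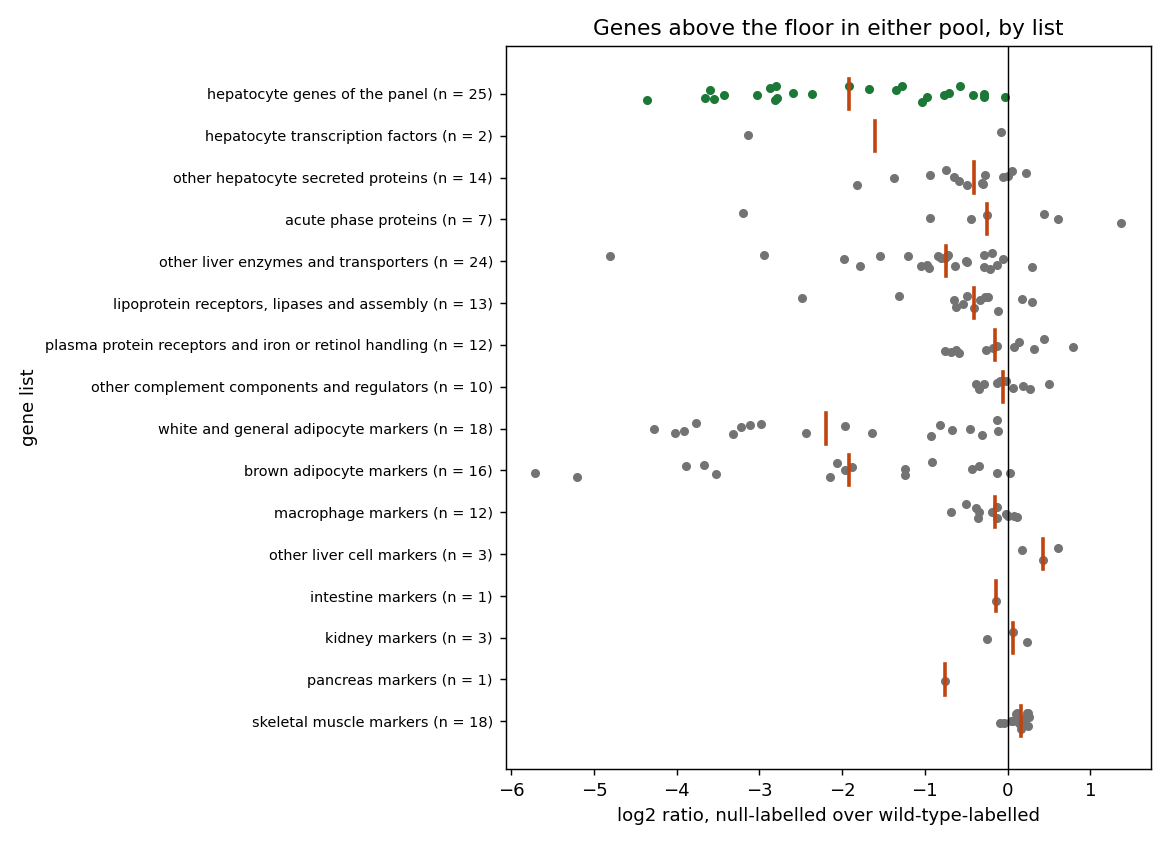
Log2 ratio, null-labelled over wild-type-labelled, of each gene above the floor in either pool in 16 lists, with signals under the floor set to it and a bar at each median. The hepatocyte panel has its median at -1.91 and the white and brown adipocyte lists at -2.20 and -1.92, while macrophage markers lie at -0.16 and skeletal muscle markers at 0.16.

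Further liver genes outside the panel were mostly under the floor, and a minority of those above it were at least 2-fold lower in the null-labelled pool. Of 57 other liver enzymes and transporters with a probe set, 33 were under the floor on both arrays, 15 were above it in the wild-type-labelled pool only and 9 were measured on both. At least 2-fold lower were 2 of those 9 and, bounds included, 7 of the 24 above the floor in either pool, against 2.36% and 2.88% of all genes. With every probe set used and no floor, 28 of the 57 were at least 2-fold lower and 1 higher, where the shares of all genes are 9.18% and 5.49%. Pygl, which breaks down glycogen in liver, was 28.1-fold lower, and Fah, the last enzyme of tyrosine breakdown, at least 7.71-fold lower. Gys2, the liver glycogen synthase, had a bound of at least 3.94-fold lower. Brown fat also expresses genes of glycogen metabolism. Among 45 other hepatocyte secreted proteins 31 were under the floor on both arrays, and 1 of the 4 measured on both and 2 of the 14 above the floor in either pool were at least 2-fold lower. The median over those 14 was -0.40. With every probe set used and no floor, 22 of the 45 were at least 2-fold lower and 0 higher, beside the same shares of all genes. Pon1 and Pon3, esterases carried on HDL, had log2 ratios of -1.83 and -0.94, and Cpn2, a subunit of the plasma carboxypeptidase N, was at least 2.60-fold lower.

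Regulators of the hepatocyte programme were mostly under the floor. Of the 2 above it, Cebpa was lower and Hnf4a nearly equal. Of 12 hepatocyte transcription factors with a probe set, 10 were under the floor on both arrays. Hnf4a had 1 of 4 probe sets above it, at 245 in the null-labelled and 258 in the wild-type-labelled pool, a log2 ratio of -0.08. Its others, under the floor on both, read 8.10, 2.50 and 118 in the null-labelled against 30.1, 56.4 and 167 in the wild-type-labelled pool. Over all 4 Hnf4a probe sets the mean log2 ratio was -1.74, mostly from signals near background. Cebpa, C/EBP alpha, which adipocytes use as well, read 485 in the null-labelled and 4262 in the wild-type-labelled pool, 8.79-fold lower. The median of all 12, every probe set used, was 0.07, with 5 below 0 and 7 above, mostly from signals under the floor.

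Markers of other tissues that make some of these proteins were mostly under the floor. Of 11 intestine markers with a probe set, 10 were under the floor on both arrays, and Vil1 and Fabp2, proteins of the gut epithelium, read 6.40 and 16.4 in the null-labelled against 5.20 and 5.00 in the wild-type-labelled pool. Of 11 kidney markers 8 were under the floor, Umod, the urinary protein uromodulin, among them, and of 10 pancreas markers 9 were. Summed signals of these 3 lists were 571, 1881 and 724 in the null-labelled and 636, 1942 and 1014 in the wild-type-labelled pool. Among 13 markers of other liver cells, such as Kupffer, sinusoidal and bile duct cells, 10 were under the floor on both arrays and 0 of the 2 measured on both were lower. The summed signals were 2127 in the null-labelled and 1684 in the wild-type-labelled pool. Stab2, a scavenger receptor of sinusoidal endothelium, had a log2 ratio of 0.61.

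Macrophage markers differed little, with 10 of 14 measured on both arrays, 0 of them at least 2-fold lower and a median log2 ratio of -0.16. Their summed signals were 10733 in the null-labelled and 12725 in the wild-type-labelled pool. Cd68, a lysosomal protein of macrophages, read 186 in the null-labelled and 211 in the wild-type-labelled pool, and Adgre1, the F4/80 antigen, 522 in the null-labelled and 483 in the wild-type-labelled pool. Cd163, the macrophage receptor for haptoglobin bound to haemoglobin, had a log2 ratio of -0.68.

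Partners of the apolipoproteins were mostly above the floor in both pools. Of 18 genes for lipoprotein receptors, lipases and assembly with a probe set, 12 were measured on both arrays. At least 2-fold lower were 2 of the 12, against 2.36% of all measured genes. Angptl4, an inhibitor of lipoprotein lipase, was 5.62-fold lower and Lmf1, which matures the lipase, 2.48-fold lower, while Pltp, which transfers phospholipid to HDL, was 1.56-fold lower. The median of the 12 was -0.45. Mttp, which loads lipid onto Apob, was under the floor in both probe sets.

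Receptors and handling proteins for the plasma carriers had a median log2 ratio of -0.13 over 11 genes measured on both arrays, with 0 at least 2-fold different. The iron exporter Slc40a1 was 1.73-fold higher, and F3, tissue factor, which starts clotting with F2 downstream, was 1.69-fold lower. For 10 other complement components and regulators the median was -0.08, and the 3 largest ratios, with signals under the floor set to it, were 0.50 for Cd55, a brake on complement that works on C3 convertases, -0.38 for C1qa and -0.35 for C1qb.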

How the data were processed

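The deposited values are linear signal intensity, 1 value per probe set and array, made with MAS5 per the submitters' processing notes (version not stated). Both columns had a 2% trimmed mean of 500, and 0 columns of other samples were present. Arrays were set to that common trimmed mean, which left values unchanged, and 64 control probe sets were dropped.

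Of 45037 other probe sets, 932 had several symbols in the platform annotation and 9160 were unnamed here, and both kinds were left out. All 36 members with a probe set matched a RefSeq gene identifier (GRCm38.p6), with 0 renamed. A gene was measured when a probe set was above the floor on both arrays; its value was the mean log2 ratio of such probe sets, and it was counted past 2-fold or 1.5-fold when they had 1 sign. For genes above the floor in either pool, signals under it were set to it.

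The members and the 15 companion lists were chosen with earlier results of these data known. Named are all members, up to 3 genes of each companion list with the largest absolute floored ratio, and fixed defining markers. Mttp, Saa1 and the promoters shown were chosen after their values were seen. No test was run, since each genotype has 1 array. The counting was tested on simulated data. Alternatives covered scaling, floor, probe set choice, an added signal of 50 and the sign rule, with Python 3.11.15, numpy 2.4.6, pandas 2.3.3 and statsmodels 0.14.6 (loess span 0.4).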

Additional observations from a re-analysis of the deposited data

How the results depend on the processing

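The median log2 ratio of the members measured on both arrays stayed below 0 under each alternative in which it was computed. The count of members measured on both arrays and at least 2-fold lower, 6 of 9, was 13 of 17 with the floor at the 50th percentile, 2 of 4 with it at the 75th, 29 of 36 with no floor and 2 of 4 without members that adipocytes or macrophages also make. Fewer or more genes were tested in these settings by construction. With no floor 1 member, Ass1, was at least 2-fold higher, against 0 otherwise. The median log2 ratio, -2.60, was -1.16 over 4 genes with the floor at the 75th percentile and -1.58 over the 4 members left without those other sources, and lay between -2.87 and -2.42 in the other settings. The count with bounds included, 17 of 25, ranged from 13 of 17 to 20 of 31. The other scalings moved members by at most 0.07 on the log2 scale, and Vtn alone changed sign, to 0.01 after quantile normalization. Using the brightest probe set moved Ttr by 0.92, the largest move of a member. Over all genes, with no floor, 1527 of 18193 were at least 2-fold lower and 927 higher when the sign rule was kept. With the floor these counts were 229 and 36 of 9696 measured genes. They were 296 and 53 of 11361 with the floor at the 50th percentile, and 113 and 11 of 6565 at the 75th. No paired analysis was possible because each genotype has 1 array. Signals under the floor give only bounds, and those of 11 members give no fold at all.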

Other observations

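Acute phase proteins, plasma proteins that rise in inflammation, went both ways. Of 14 with a probe set, 7 were under the floor on both arrays. Orm1, orosomucoid, made by hepatocytes, read 75.4 in the null-labelled and 1676 in the wild-type-labelled pool, at least 9.20-fold lower. Lcn2, lipocalin, which neutrophils carry in granules as well, read 472 in the null-labelled and 89.5 in the wild-type-labelled pool, at least 2.59-fold higher. Hamp, hepcidin, the liver hormone that limits iron export, had a mean log2 ratio of -0.94 over 2 probe sets, at 187 and 217 in the null-labelled against 433 and 345 in the wild-type-labelled pool. Its target, the iron exporter Slc40a1, read 2771 and 605 in the null-labelled against 1532 and 366 in the wild-type-labelled pool. Saa1, a major liver acute phase protein, was under the floor on both arrays.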
